A study of Mus musculus with 6 samples.

Results

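The genes examined were 37 genes known to be induced by type I interferon. They were taken as a list of symbols known from interferon biology. The rule for the list uses no measured value, but it was written with earlier results of these data known. All 37 were found among the 23394 genes of the data and all 37 were among the 15619 genes with enough reads to test. They were measured in RNA of liver cells carrying F4/80, a surface antigen of mouse macrophages. The cells came from male C57BL/6 mice, 3 months old and fed normal chow, that had all received carbon tetrachloride (CCl4) into the peritoneum to induce liver fibrosis. The WT and the KO group each comprised 3 libraries, and genotype was the only label that set them apart. The labels do not name the gene altered in the KO mice, nor a promoter or cell type in which it was altered. No group without CCl4 was analysed here, and nothing in the labels ties libraries to individual animals, so p-values reflect only how these libraries vary.

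Type I interferons are secreted proteins of antiviral defence. They bind a receptor made of Ifnar1 and Ifnar2, whose kinases Jak1 and Tyk2 phosphorylate transcription factors, Stat2 among them. Stat2 and Irf9 are parts of the complex ISGF3, which binds a DNA element called the interferon-stimulated response element (ISRE) near the genes that respond. The products block viral replication, sense foreign nucleic acids, or raise and restrain the response itself. Macrophages, the sinusoidal endothelium and other liver cells all respond to interferon.

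The level of a gene is given as the normalised count of its highest transcript, the reads of that transcript after scaling of each library by a single factor of the authors. A log2 change is the KO mean minus the WT mean of log2(normalised count + 1), which understates changes of low genes. A gene was called when limma's adjusted p over all 15619 tested genes was under 0.05. With 1 transcript kept per gene the libraries held 10790842 to 22157238 reads. Mitochondrial transcripts took 27.5% of the reads in WT replicate 2 and 6.19% in WT replicate 3, against 16.2% to 20.0% in the other libraries. Without KO replicate 3 the number of genes called over the whole data dropped from 381 to 8. For Adgre1, the F4/80 gene, the WT mean was 6208 ± 1613 and the KO mean 5254 ± 1233 (SD, n = 3 each), and none of the 12 macrophage markers was at 0 in any library.

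The levels of 26 of the 37 genes had a log2 change above 0 and 11 a log2 change below 0. Over all tested genes 54.2% were above 0. The median log2 change was 0.24 for the 37 genes and 0.05 for all tested genes. Only Ifit3 was called, as higher in KO. Over all tested genes 2.44% were called, 2.09% as higher in KO and 0.352% as lower. At an unadjusted p under 0.05, 10 of the 37 genes were higher, where 12.1% of all tested genes were, and 1 was lower, where 5.90% were. The 10 became 2 without WT replicate 1, 3 without WT replicate 3, 5 without KO replicate 1 or KO replicate 2, 6 without KO replicate 3 and 12 without WT replicate 2, and it was 5 with total reads and 4 with edgeR's test. No share over all tested genes is given for those other settings. The 12.1% holds only for limma with all libraries and the authors' factors. Whether each of those counts lay above or below its own background was therefore not tested. The lowest KO value lay above the highest WT value for 8 genes, or 21.6%, against 13.7% of all tested genes. They were Ifit3, Bst2, Oasl2, Cmpk2, Xaf1, Ifit1, Ifitm3 and Irf9. Only Dtx3l had all KO values below all WT values, an order found for 9.25% of all tested genes. With total reads in place of the authors' factors 21 of the 37 genes were above 0, and their median was 0.16 beside -0.04 for all tested genes.

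**Figure D1:**
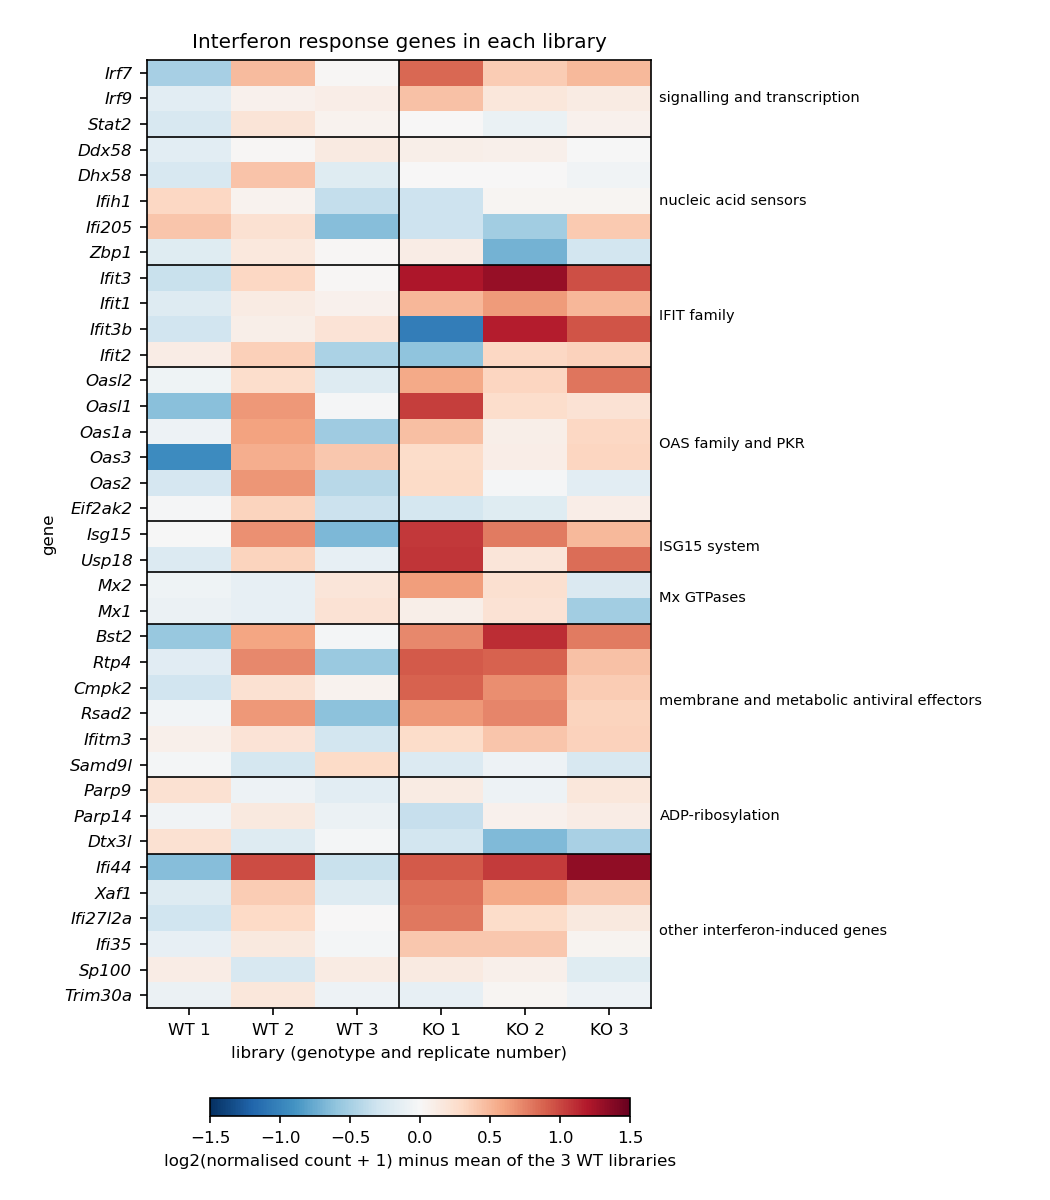
Level of each of the 37 genes (rows, grouped by role) in each of the 6 libraries (columns), as log2(normalised count + 1) minus the mean of the 3 WT libraries. Red cells gather in the KO columns for Ifit3, Bst2, Ifi44, Isg15 and Cmpk2, while the nucleic acid sensors show no common colour, and WT replicate 2 is redder than the other WT libraries in many rows.

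Levels varied within WT in a way that bears on most of the genes. WT replicate 2 held the highest of the 3 WT values for 26 of the 37 genes, or 70.3%, against 30.7% of all tested genes. Relative to the WT mean, the mean of the 37 genes on the log2 scale was 0.27 in WT replicate 2, -0.15 in replicate 1 and -0.12 in replicate 3. KO replicates 1, 2 and 3 were at 0.32, 0.28 and 0.25. Thus this mean over the 37 genes differed little between the 3 KO libraries, and WT replicate 2 stood close to them. Opposite deviations of single genes can cancel in this mean, so it does not show that the KO libraries were alike gene by gene. Over all tested genes the same measure was 0.14, 0.10 and 0.15 in KO replicates 1, 2 and 3 and -0.02 in WT replicate 2. The KO libraries were therefore above the WT mean over all tested genes too, by less. Without WT replicate 2, 30 of the 37 genes were above 0 and the median was 0.37. Ifi44 was then called in place of Ifit3, as described below. Leaving out the WT library where a gene is highest raises its log2 change by construction, so this rise adds no support. The share over all tested genes is not given for this setting.

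The IFIT family are cytoplasmic proteins that bind viral RNA or act as scaffolds beside those that do. Its 4 genes lie within 1 stretch of chromosome 19 in GRCm38, in the order Ifit2, Ifit3, Ifit3b and Ifit1. Ifit3 (ENSMUSG00000074896) lies at 34583531 to 34588731 on the plus strand. It was at 125, 195 and 159 normalised counts in WT replicates 1, 2 and 3 and at 365, 390 and 307 in KO replicates 1, 2 and 3. All KO libraries lay well above all WT libraries. The means were 160 ± 35.3 and 354 ± 42.4 (SD, n = 3 each), a 2.23-fold higher level in KO (log2 change 1.16, SE 0.25, limma adjusted p = 0.047). The call was lost without any 1 of the 6 libraries, at limma adjusted p of 0.0509 to 0.168, and edgeR's quasi-likelihood test on recovered reads gave an adjusted p of 0.062.

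Ifit1, which recognises the cap of foreign RNA, was at 134, 167 and 159 in WT and at 216, 238 and 216 in KO libraries. The groups did not overlap and each was tight, but the gene was not called (log2 change 0.54, SE 0.23, limma adjusted p = 0.257). Ifit2 was at 476, 566 and 318 in WT and at 291, 548 and 562 in KO, so the groups overlapped widely, with a log2 change of 0.02. With TMM factors, a scaling that sets the bulk of genes equal between libraries, Ifit2 was below 0 and the other 3 IFIT genes above 0. The 4 neighbours thus ranged from 0.02 to 1.16 in log2 change.

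Ifit3b, a near-copy of Ifit3, had the lowest level of the 37 genes per kilobase of transcript in both groups. It was at 25.8, 33.6 and 36.5 in WT and at 14.9, 72.7 and 61.7 in KO libraries, so KO replicate 1 lay below all WT libraries and the other 2 KO libraries above them (log2 change 0.36, SE 0.62, limma adjusted p = 0.823). Of all stretches of 50 bases in the Ifit3 transcript, 51.2% also occur in Ifit3b. The sources used here do not say how reads matching both were counted, which makes the counts of either gene uncertain. With the reads of both genes added, WT libraries held 150, 229 and 196 and KO libraries 380, 462 and 369 normalised counts, and the log2 change was 1.08 (SE 0.24, limma adjusted p = 0.0487). The groups remained apart for the sum.

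The ISRE was searched in promoter windows of 250 bases before to 50 after a start site, from RefSeq on GRCm38.p6. A window could be matched for 27 of the 37 genes, and not for Dhx58, Ifi27l2a, Mx1, Mx2, Oas2, Parp14, Parp9, Rtp4, Usp18 and Zbp1. Its letters, taken as 2 copies of GAAA with any 2 bases between them on either strand, were found in 15 of the 27 windows, or 55.6%, and in 3.31% of the 10949 windows of tested genes. The letters of the GAS element, known from the response to interferon gamma, taken as TTC and GAA with any 3 bases between them, were found in 6 of the 27, or 22.2%, against 7.01%. In 2 of the 27 windows the letters of both overlapped. The window of Ifit2 held no ISRE match. The sites of Ifit3, Ifit3b and Ifit1 are printed to show the cores that these neighbours share, and 1 site each of Isg15 and Bst2 for comparison, with the matched letters in capitals and 5′ to 3′ in the direction of the gene.
Ifit3, chr19:34583363-34583392, plus strand: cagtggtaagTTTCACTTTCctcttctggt
Ifit3, chr19:34583397-34583426, plus strand: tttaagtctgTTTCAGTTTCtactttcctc
Ifit3b, chr19:34607759-34607788, plus strand: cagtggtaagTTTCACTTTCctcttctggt
Ifit3b, chr19:34607793-34607822, plus strand: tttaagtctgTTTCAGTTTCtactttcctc
Ifit1, chr19:34640775-34640804, plus strand: caggcttcagTTTCACTTTCcagtctcagt
Ifit1, chr19:34640794-34640823, plus strand: ccagtctcagTTTCAGTTTCtcactgctga
Isg15, chr4:156200871-156200900, minus strand: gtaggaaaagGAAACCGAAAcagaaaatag
Bst2, chr8:71537577-71537606, minus strand: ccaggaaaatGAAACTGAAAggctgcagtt
Isg15 held 3 overlapping matches and Bst2 held 2, of which 1 each is printed. Ifit3, Ifit3b and Ifit1 carried the same pair of cores on the strand opposite to the gene, and the 30 bases of both sites were identical in Ifit3 and Ifit3b. The letters did not sort the genes by change. The median log2 change was 0.28 for the 15 genes with them, 10 of them above 0, and 0.40 for the 12 without them, also 10 of them above 0. A match describes letters in this window and shows no binding. A window without a match does not show that the gene lacks an ISRE. The start sites used for the Irf9 and Dtx3l windows, both without a match, lay 414 and 124 bases from the start of the kept transcript.

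**Figure D2:**
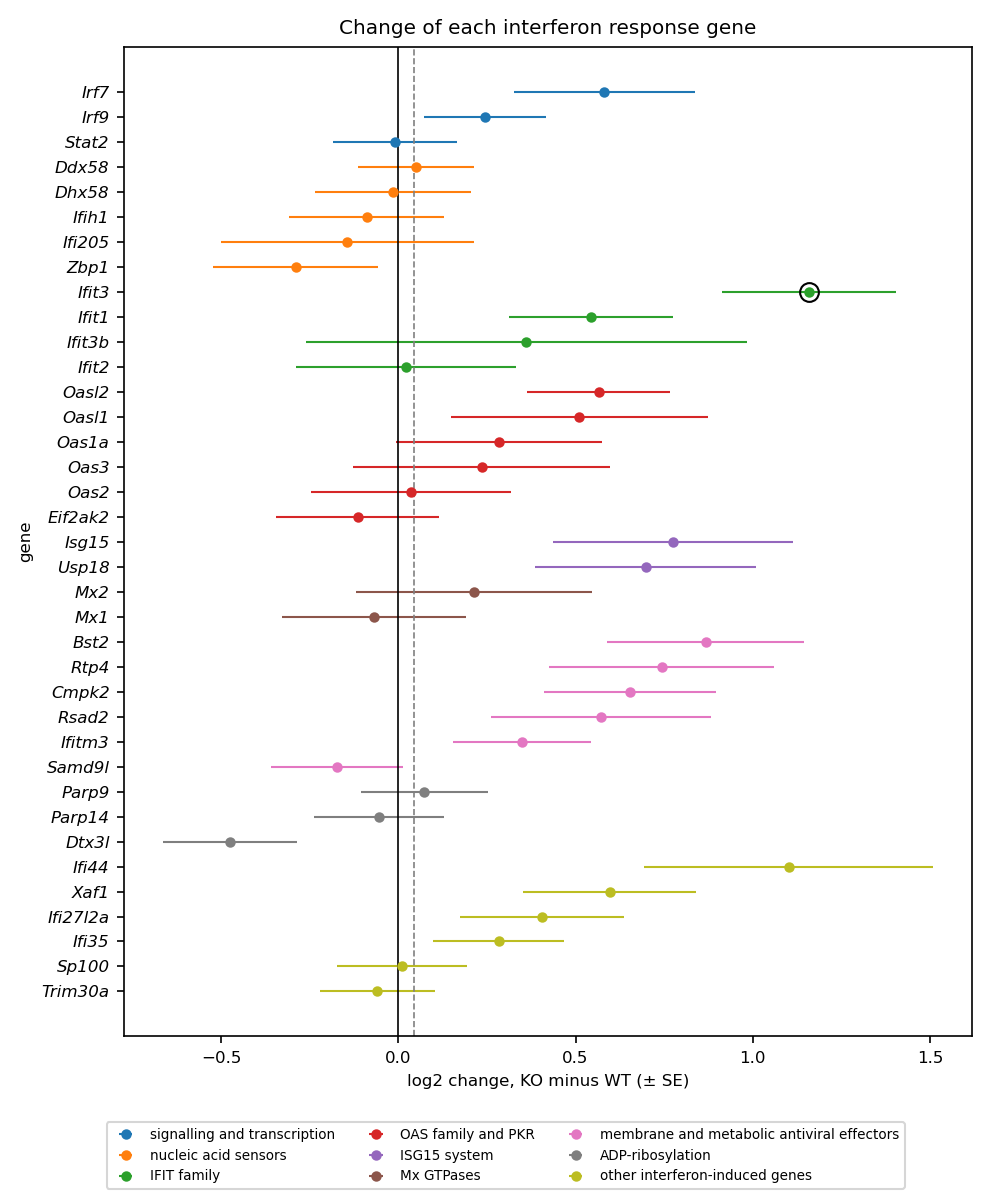
Log2 change of each of the 37 genes, KO minus WT, with its standard error from limma and coloured by role. The ring marks Ifit3, the gene called, the dashed line is the median of all tested genes at 0.05, and the nucleic acid sensors lie close to 0 or below it, between -0.29 and 0.05.

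Of the 3 genes that carry the signal into the nucleus, none was called. Irf7, which amplifies the production of interferon, was at 1010, 1972 and 1443 normalised counts in WT and at 2594, 1856 and 1998 in KO libraries. WT replicate 2 lay above KO replicate 2 (log2 change 0.58, SE 0.25, limma adjusted p = 0.27). Irf9, the DNA-binding part of ISGF3, was at 1031, 1210 and 1236 in WT and at 1561, 1305 and 1259 in KO. Its groups did not overlap, although the gap between them was narrow (log2 change 0.24, limma adjusted p = 0.513). Stat2 had 1224 ± 180 in WT and 1208 ± 71.1 in KO (SD, n = 3 each). Irf9 shares 4.16% of its transcript with exons of Rnf31 on the same strand, so a small part of its count may belong there.

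The nucleic acid sensors detect viral RNA or DNA in the cell and switch interferon on. None of the 5 was called and none had separated groups. Ddx58, which encodes the RNA sensor RIG-I, was at 829 to 1016 normalised counts in WT and 918 to 982 in KO libraries. Ifih1, the sensor MDA5 of long double-stranded RNA, was at 474 to 753 in WT and 489 to 618 in KO. Dhx58, a regulator of both, had a log2 change of -0.02. Zbp1, a sensor of nucleic acids in the Z form that can trigger cell death, had the lowest log2 change of the group at -0.29. Its kept transcript is annotated as a retained intron, and its highest coding transcript gave -0.27. Ifi205, of the DNA-binding p200 family, had a log2 change of -0.14 and shares 49.5% of its stretches of 50 bases with Ifi211. With TMM factors all 5 sensors were below 0, whereas with the authors' factors Ddx58 was above 0.

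The OAS enzymes make short chains of adenosine that activate the RNA-cutting enzyme RNase L, and PKR, encoded by Eif2ak2, halts translation when it binds double-stranded RNA. Oasl2, an OAS-like protein, was at 600, 753 and 551 normalised counts in WT and at 936, 784 and 1100 in KO libraries. The groups did not overlap, but KO replicate 2 exceeded WT replicate 2 by little (log2 change 0.56, SE 0.20, limma adjusted p = 0.176). Its neighbour on chromosome 5, Oasl1, a repressor of Irf7 translation, was at 115, 280 and 177 in WT and at 370, 216 and 209 in KO, with overlapping groups (log2 change 0.51). Oas3 was at 173 in WT replicate 1 and between 360 and 488 in the other 5 libraries. Oas1a, Oas2 and Eif2ak2 had log2 changes of 0.28, 0.04 and -0.11, and their groups overlapped. Oas2 was below 0 with TMM factors. Oas1a shares 57.6% of its stretches of 50 bases with Oas1g, and with the reads of both added its log2 change was 0.31 (limma adjusted p = 0.666).

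Isg15 encodes a ubiquitin-like protein that is attached to other proteins, and Usp18 the protease that removes it and also blocks the interferon receptor. Isg15 was at 214, 346 and 134 normalised counts in WT and at 450, 369 and 301 in KO libraries. WT replicate 2 lay above KO replicate 3, so the groups overlapped (log2 change 0.77, SE 0.34, limma adjusted p = 0.269). Usp18 was at 107, 157 and 114 in WT and at 262, 141 and 223 in KO, where KO replicate 2 fell within the WT range (log2 change 0.70, SE 0.31, limma adjusted p = 0.279). Exons of Gm44148 on the opposite strand cover 7.0% of the Usp18 transcript. The Mx GTPases trap viral particles in other species and strains, while the C57BL/6 strain carries a defective Mx1 allele. The Mx2 gene is annotated as a polymorphic pseudogene, although its kept transcript is annotated as protein coding. Mx1 and Mx2 had log2 changes of -0.07 and 0.21, with overlapping groups. Both were low, at 180 to 302 and 71.9 to 130 normalised counts over the 6 libraries.

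**Figure D3:**
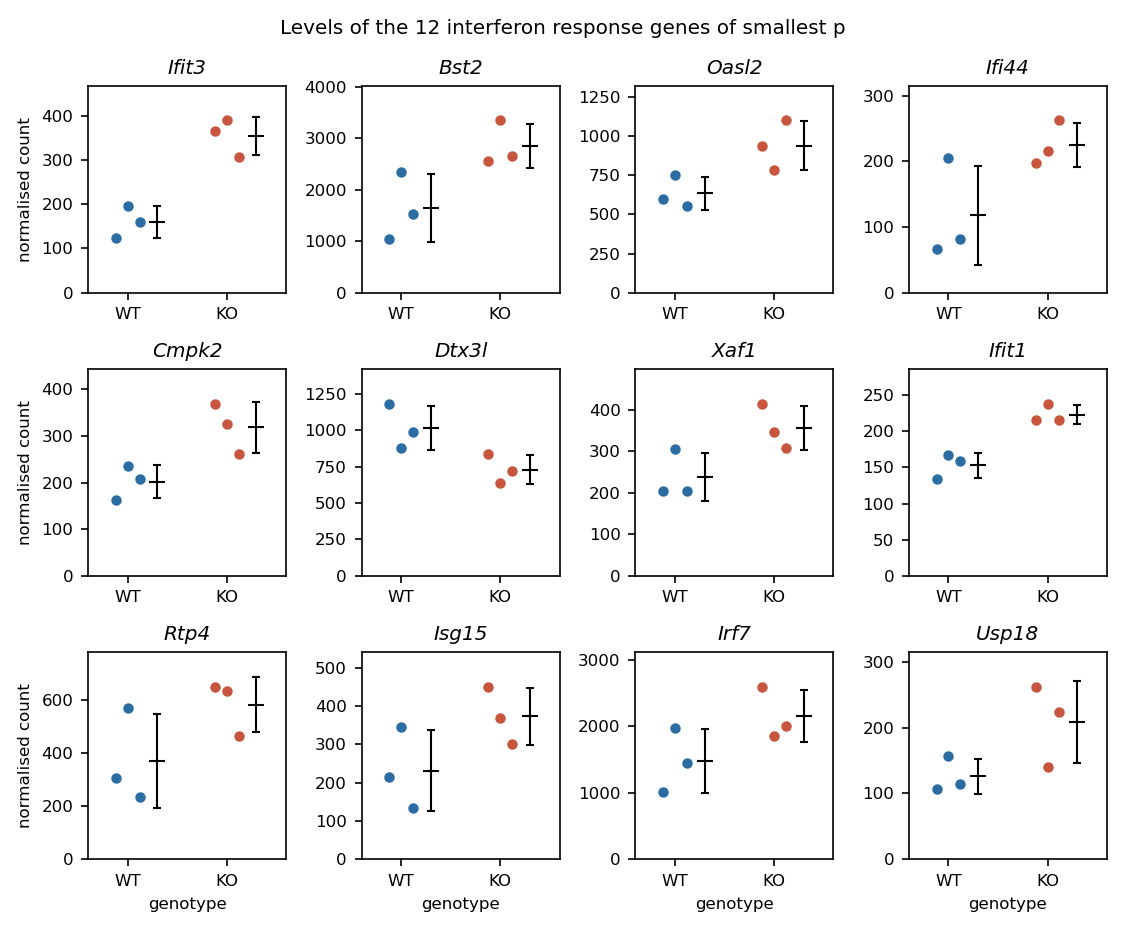
Normalised counts of the 12 genes of smallest p in each library (points, 3 WT in blue and 3 KO in red), with the mean and SD of each group beside them. The groups are separate for Ifit3, Bst2, Oasl2, Cmpk2, Dtx3l, Xaf1 and Ifit1, and overlap for Ifi44, Rtp4, Isg15, Irf7 and Usp18, where the upper WT point is often replicate 2.

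The effectors at membranes and in nucleotide metabolism included the most abundant of the 37 genes. Per kilobase of transcript Ifitm3, Bst2 and Ifi27l2a had the highest levels of the 37 genes in both groups. They had 6902, 2071 and 1670 normalised counts per kilobase in WT and 8708, 3606 and 2225 in KO. Ifi27l2a is not one of these effectors and is grouped with the remaining genes below. Bst2, also called tetherin, holds budding virus at the cell surface. It was at 1050, 2350 and 1522 normalised counts in WT and at 2555, 3349 and 2663 in KO libraries. The groups did not overlap, with WT replicate 2 just under KO replicate 1. The means were 1640 ± 658 and 2856 ± 431 (SD, n = 3 each), and Bst2 was not called (log2 change 0.87, SE 0.28, limma adjusted p = 0.133). It had the second smallest p of the 37 genes, and its adjusted p was 0.0509 to 0.38 over the alternatives tried.

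Ifitm3 restricts the fusion of virus with endosomes. It was at 4882, 5336 and 3820 normalised counts in WT and at 5596, 6205 and 5912 in KO libraries. The groups did not overlap, and the gene was not called (log2 change 0.35, SE 0.20, limma adjusted p = 0.399). Rsad2, or viperin, makes a nucleotide that ends viral RNA chains, and Cmpk2 is a nucleotide kinase of mitochondria. They are neighbours on chromosome 12 with 12751 bases between them. Cmpk2 was at 164, 235 and 208 in WT and at 370, 325 and 261 in KO, without overlap (log2 change 0.65, SE 0.24, limma adjusted p = 0.194). Rsad2 was at 291, 472 and 195 in WT and at 469, 498 and 376 in KO, with overlap in WT replicate 2 (log2 change 0.57, limma adjusted p = 0.383). The kept Rsad2 transcript is annotated as subject to nonsense-mediated decay, and its highest coding transcript gave 0.61. Rtp4, a receptor transporter, was at 306, 569 and 234 in WT and 650, 634 and 465 in KO, again with WT replicate 2 inside the KO range (log2 change 0.74, limma adjusted p = 0.258). Samd9l, which restrains growth and translation, was at 1712 to 2501 in WT and 1730 to 1949 in KO (log2 change -0.17).

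Parp9 and Dtx3l encode partners in an enzyme complex that modifies histones and other proteins with ADP-ribose and ubiquitin, and Parp14 is a related ADP-ribosyltransferase. Dtx3l was at 1182, 881 and 985 normalised counts in WT and at 834, 636 and 717 in KO libraries. All KO values lay below all WT values, and the gap between WT replicate 2 and KO replicate 1 was small (log2 change -0.48, SE 0.19, limma adjusted p = 0.225). Parp9, which starts beside Dtx3l on the opposite strand of chromosome 16, was at 955, 771 and 731 in WT and at 886, 775 and 912 in KO, a log2 change of 0.07. Exons of Parp9 cover 8.63% of the Dtx3l transcript and exons of Dtx3l cover 10.3% of the Parp9 transcript. The library kit marked strand, but the sources used here do not give the strand setting of the counting. Parp14 had a log2 change of -0.05 and 1622 to 2281 normalised counts over the 6 libraries.

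The remaining genes are induced by interferon and have mixed roles. Ifi44 was at 65.9, 205 and 82.0 normalised counts in WT and at 197, 216 and 262 in KO libraries. WT replicate 2 lay within the KO range, and WT replicates 1 and 3 were less than the lowest KO library by a wide margin (log2 change 1.10, SE 0.41, limma adjusted p = 0.194). Without WT replicate 2 the log2 change of Ifi44 was 1.59, and it was called with a limma adjusted p of 0.0472. Xaf1, which promotes cell death, was at 204, 306 and 204 in WT and at 414, 346 and 309 in KO, with the groups apart by a narrow gap (log2 change 0.60, SE 0.24, limma adjusted p = 0.238). Ifi27l2a, of the Ifi27 family, was at 617 to 940 in WT and 841 to 1323 in KO, and Ifi35 at 589 to 715 in WT and 663 to 852 in KO. Sp100, of the PML nuclear bodies, and Trim30a, which restrains toll-like receptor signalling, had log2 changes of 0.01 and -0.06. Both were abundant, with 2250 to 2908 and 1365 to 1676 normalised counts over the 6 libraries. Sp100 was below 0 with TMM factors.

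Among the genes upstream, the interferons themselves had few reads. Of 20 type I and III interferon genes, Ifnb1 alone had enough reads to test, and Ifna1, Ifna2, Ifna4 and Ifna5 had some reads. The other 15 had no entry under their symbols among the genes of the data, so they could not be measured here. Ifnb1, which encodes interferon beta, had 100, 176 and 32 reads in WT and 9, 15 and 36 reads in KO libraries. In normalised counts it was at 103, 185 and 18.0 in WT and at 13.4, 17.9 and 30.4 in KO. WT replicate 3 lay within the KO range, and the other 2 WT libraries were far above it (log2 change -1.81, SE 0.79, limma adjusted p = 0.269). DESeq2 called Ifnb1 lower (log2 change -2.33, adjusted p = 0.0253), and the adjusted p of the other alternatives was 0.0533 to 0.56. The log2 change was -1.12 without WT replicate 2 and -2.77 without WT replicate 3. Ifna2 had 6, 5 and 3 reads in WT and 0, 0 and 1 in KO. Reads of Ifna1, Ifna4 and Ifna5, numbering 7, 4 and 2, were found only in WT replicate 2 of the 6 libraries. The interferon alpha genes are alike in sequence, so these few reads are uncertain between them.

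Among 10 interferon receptor and JAK-STAT genes outside the 37, 2 had a log2 change above 0, the median was -0.30 and none was called. Ifngr1, a chain of the interferon gamma receptor, was at 4311 ± 666 in WT and 3032 ± 804 in KO with SDs over 3 libraries (log2 change -0.53, limma adjusted p = 0.257). Ifnar1 was at 2499, 1904 and 2079 in WT and at 1652, 1731 and 1743 in KO, without overlap (log2 change -0.33, limma adjusted p = 0.355). Ifngr2 and Tyk2 had log2 changes of -0.35 and -0.31. Of 19 tested genes that sense nucleic acids or induce interferon, 7 were above 0, with a median of -0.17, and Tlr7 alone was called. Tlr7, the endosomal sensor of single-stranded RNA, fell from 1753, 1281 and 1299 to 725, 597 and 591 normalised counts, without overlap (log2 change -1.17, SE 0.19, limma adjusted p = 0.0219). Its call was lost without WT replicate 1, KO replicate 2 or KO replicate 3, at limma adjusted p of 0.0537, 0.0831 and 0.108. Ikbke, a kinase that activates Irf3 and Irf7, and the receptor adaptors Myd88 and Irak4 had log2 changes of -1.40, -0.67 and -0.61 and were not called.

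Genes that restrain interferon signalling gave 5 of 15 above 0, with a median of -0.08 and none called. The phosphatase gene Ptpn6, the nucleotide hydrolase gene Samhd1 and the SUMO ligase gene Pias1 had log2 changes of -0.75, -0.59 and -0.36, and Rnf125, a ubiquitin ligase that acts on RIG-I, had 1.11. A further list of interferon-stimulated genes gave 33 of 52 above 0, with a median of 0.08, and Ifi27 alone was called. Ifi27, a mitochondrial protein of the family of Ifi27l2a, was at 656, 745 and 614 in WT and rose to 1175, 1065 and 1244 in KO, without overlap (log2 change 0.79, SE 0.17, limma adjusted p = 0.047). Like that of Ifit3, its call was lost without any 1 library, at limma adjusted p of 0.0519 to 0.194. It was also lost with other scalings, no filter on low values, edgeR's test, limma-voom, summed transcripts and the replicate block, at adjusted p of 0.0504 to 0.0999. Lgals9, Ly6a and Tnfsf10 had log2 changes of 1.01, 0.79 and 0.79 and missed the threshold, at limma adjusted p of 0.05004, 0.056 and 0.114. With TMM factors 28 of the 52 were above 0. Of 7 tested genes typical of interferon gamma 6 were above 0 and none was called. Gbp2, Ciita, Irgm1 and Cxcl9 had log2 changes of 0.51, -0.52, 0.53 and 0.82.

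**Figure D4:**
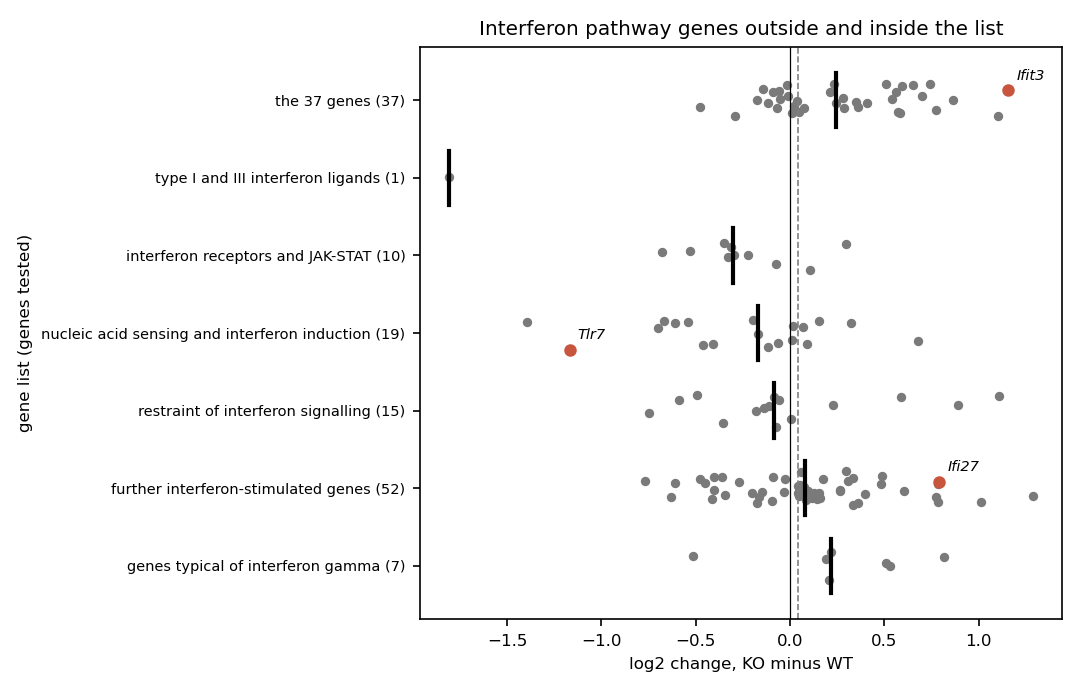
Log2 change, KO minus WT, of each tested gene in the 37 genes and in 6 lists of interferon pathway genes outside them, with a black bar at each median. Red points are the genes called, Ifit3, Tlr7 and Ifi27, and the dashed line is the median of all tested genes at 0.05.

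Markers of some other cells moved with genotype beside these levels. All 15 hepatocyte markers were above 0, and their summed level was 37000 to 118100 normalised counts in WT and 138700 to 242200 in KO libraries. All 13 endothelial markers were above 0, at 35380 to 66990 in WT and 73440 to 150800 in KO, and 10 of 12 stellate cell and myofibroblast markers, at 19820 to 28520 and 32040 to 57910. The 6 tested cholangiocyte markers were above 0 too, and the list was at 536.6 to 1726 in WT and 1823 to 2531 in KO. Erythroid markers overlapped, at 2221 to 33350 in WT and 30740 to 268700 in KO. Marker lists of plasmacytoid dendritic cells, which produce interferon, were at 6277 to 7543 in WT and 4441 to 6472 in KO, with 2 of 10 above 0. Macrophage markers had 5 of 12 above 0, at 58970 to 133500 in WT and 56380 to 67060 in KO. All 9 monocyte markers were below 0, but their summed level overlapped, at 46580 to 67100 in WT and 32650 to 48040 in KO. The summed levels of neutrophil, conventional dendritic cell, T and NK cell, and B cell markers overlapped between the groups too. No marker of these lists was at 0 in every library, and the erythroid marker Epb42 and the cholangiocyte marker Cftr were among those at 0 in some. WT replicate 2 had the highest summed endothelial, hepatocyte, macrophage and erythroid levels of the WT libraries. The part of these cells in the levels of the 37 genes was not tested, and in bulk RNA a change in the number of cells cannot be told apart from a change in RNA per cell.

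**Figure D5:**
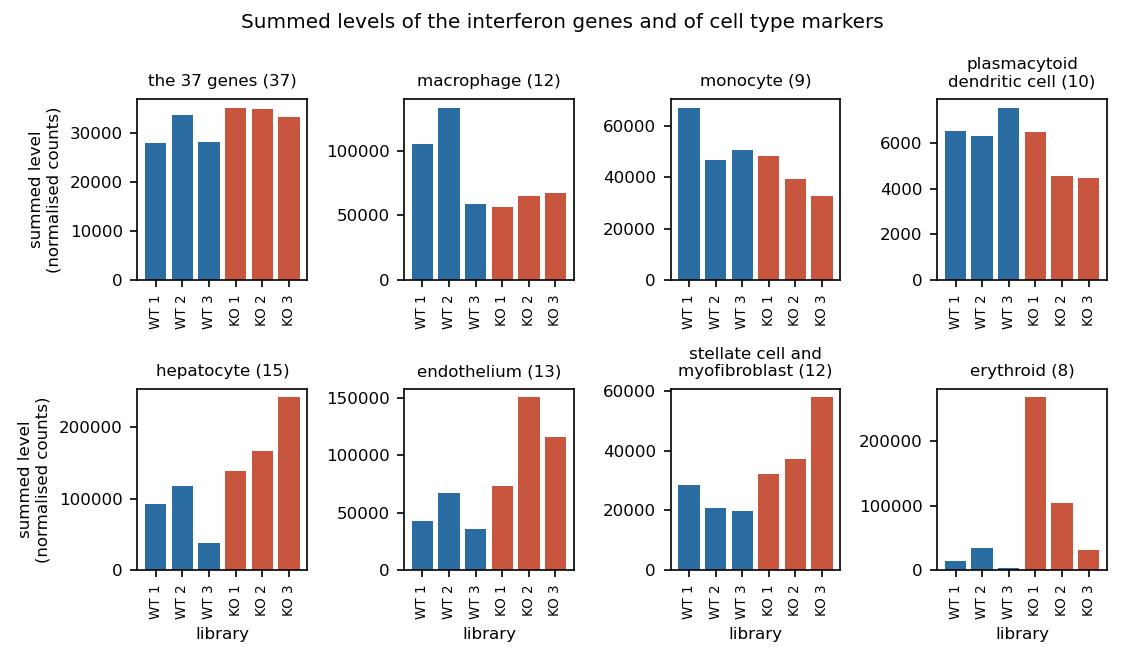
Summed level (normalised counts) of the 37 genes and of 7 cell type marker lists in each library, WT in blue and KO in red, with the number of genes in brackets. Hepatocyte, endothelial and stellate cell markers are higher in all KO than in all WT libraries, while the 37 genes overlap between WT replicate 2 and KO replicate 3.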

How the data were processed

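The 3 WT and 3 KO libraries of F4/80-positive liver cells were grouped by their labels. Build GRCm38.p4 and the tools DESeq 1.8.3, HTSeq 0.5.3, SAMtools, STAR 2.4.0k and bcl2fastq 2.17 are named in the submitters' processing notes, with no role stated. Each deposited table holds a signal for 79382 Ensembl transcripts, which the file headers call normalised counts. All values of a library were whole multiples of its smallest nonzero value (within 0.001), so reads were recovered. Transcripts were matched to GENCODE M21 on GRCm38 (78332 matched), and the transcript of highest mean was kept for each of 23394 genes.

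The main test was limma 3.58.1 with a trended prior on log2(value + 1), two-sided, with Benjamini-Hochberg adjustment over the 15619 genes kept by filterByExpr of edgeR 4.0.16. On data simulated for KO against WT over 15619 genes, it found 18% of genes given a log2 change of 1 and 74% of those given 2. Each change was given to 50 genes, and the simulated libraries were scaled by their totals, not by the authors' factors. The shares found in the real data may therefore differ from these. The 3 libraries per group limit precision. The alternatives were other scalings, pseudocounts, filters, tests (edgeR, DESeq2 1.42.0, limma-voom), summed or coding transcripts, leaving out each library and a replicate block. Whole reads came out for 100% of values, and edgeR's test on them called 282 genes.

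The genes and lists were chosen with earlier results of these data known. All 37 genes could be named, with values per library for those called, the 8 of smallest p and those with separated groups. From each pathway list, called genes and up to 4 of smallest p were named. Values of some list genes are not reported here.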

Additional observations from a re-analysis of the deposited data

How the results depend on the processing

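The count of 1 called gene among the 37 rested on Ifit3 and dropped to 0 with TMM factors, total reads, total reads without mitochondrial genes, no filter on low values, edgeR's quasi-likelihood test, limma-voom, summed transcripts or the replicate block, where the limma or edgeR adjusted p of Ifit3 was 0.0541 to 0.0828. It stayed at 1 with pseudocounts of 0.5 and 5, the CPM filter, DESeq2 (adjusted p = 0.00232) and the highest coding transcript, the last chosen after seeing the data, as were the sums of near-identical copies. At an unadjusted p under 0.05 in either direction, 5 of the 37 passed edgeR's test, 4 of them as higher in KO. With limma-voom 9 passed, 8 of them as higher in KO. The share over all tested genes is not given for these tests. Leaving out 1 library gave 0 to 1 called genes of the 37, the 1 being Ifi44 without WT replicate 2. The count over all genes was 381, and it was 8 to 809 without 1 library, 1409 with DESeq2 and 233 with summed transcripts. The cause of these differences was not tested. Both transcripts of Stat2 held the same values in every library, so summed transcripts may count the same reads more than once. The median log2 change of the 37 genes stayed above 0 under all alternatives, at 0.16 to 0.37. The 0.37 was found without WT replicate 2, where a rise is built in. The median over all tested genes moved with the scaling too and is not given here for each alternative. The replicate block gave 539 calls over all genes. Same-numbered libraries did not deviate together, with correlations of -0.0148, 0.0878 and -0.142, so the numbers were not taken to pair the libraries. Depth limited Ifit3b, with 10 to 73 reads in a library, and the interferon genes.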
